A study of Homo sapiens with 8 samples.

Results

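The 47 genes described here are nucleolar and ribosome biogenesis genes: factors of RNA polymerase I transcription, proteins of small nucleolar ribonucleoproteins (snoRNPs), nucleolar chaperones, and processing and assembly factors of the small and large ribosomal subunits. They were taken by gene symbol from a table of 61228 symbols, and all 47 were found in it. RNA sequencing had been carried out on 8 clones of RPMI-8402, an established line of T-cell acute lymphoblastic leukaemia, grown in RPMI-1640 medium with serum and given no treatment. The design compares 4 clones in which the transcription factor gene NKX2-1 is labelled as knocked out (C12, C15, S04 and S36) with 4 clones labelled wild type (WT10, WT13, WT28 and WT30), and asks how transcription changed after the knockout. All 8 are clones of a single line, so each group holds clones rather than independent lines. The sources used here do not give the meaning of the letters C and S, or the kind of edit.

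Ribosomes are built in the nucleolus, where RNA polymerase I transcribes a long precursor ribosomal RNA. SnoRNPs guide chemical modification of this precursor, the small subunit processome folds and cuts its early part, and a separate series of assembly factors matures the large subunit before export. Growing leukaemia cells use this pathway heavily, and the transcription factor MYC is its best known activator, through E-box sites in the promoters of many of its genes.

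Library totals ran from 12344549 to 25423215 counts in 7 clones, and C15 held 2730285, so that a count of 0 allows up to 1.21 CPM (counts per 1000000 of a TMM-scaled library total) in C15 and at most 0.229 CPM elsewhere. NKX2-1 itself stood at 56.3, 63.1, 53.5 and 54.2 CPM in the wild-type clones and at 71.9, 11.3, 83.5 and 33.3 CPM in C12, C15, S04 and S36 (exact two-sided permutation p = 0.543, 70 assignments, smallest possible p 0.0286). C12 and S04 lay above every wild-type clone and C15 and S36 below every one, so the split crossed the letters C and S. The targeted gene's count therefore did not separate the groups, and without the kind of edit this check cannot be read further. Of 12 T-lineage markers, 11 had counts and 10 reached 1 CPM in every clone, LAT being at 0, with sums of 1786 to 2252 CPM in wild-type and 1791 to 2114 CPM in knockout clones. Markers differed within the list. TRBC1 had 162 to 228 CPM in wild-type clones and 209, 18.5, 266 and 36.5 CPM in C12, C15, S04 and S36. TRAC and TRBC2 were also lowest in C15 and S36. CD7 had 5.58 to 6.53 CPM in wild-type clones and 3.27, 1.61, 3.80 and 1.30 CPM in that order. CD3D had 455 to 608 CPM in wild-type clones and 534, 625, 494 and 501 CPM in that order. Of 6 myeloid markers none reached 1 CPM in every clone, their sum being 0 to 1.87 CPM over the knockout clones and 0.262 to 0.706 CPM over the wild-type clones. Mitochondrially encoded genes took 12.9% to 15.1% of counts in wild-type clones and 14.8%, 21.2%, 18.5% and 16.8% in C12, C15, S04 and S36. Over 35 tested histone genes, the median log2 difference from the wild-type mean reached 1.90 in S04 and 2.11 in S36, against -0.074 in C12 and 0.69 in C15.

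Many promoters of these genes hold a sequence that the choice of genes did not use. In RefSeq promoter windows of GRCh38.p14, from 250 bases before to 50 after the gene start, 39 of the 47 genes had an entry (RRP12, NOP58, TCOF1, RRS1, RRP1B, BOP1, NOLC1 and DDX18 had none), and 19 of the 39 (48.7%) held the palindromic E-box CACGTG, which reads the same on both strands. The same hexamer was present in 29 of 119 other ribosome biogenesis genes (24.4%) and in 2396 of 27305 genes of the whole promoter table (8.77%). Within 40 bases before and 25 after the start, a window chosen after the matches had been seen, 13 of the 39 genes (33.3%) held it, against 14.3% and 2.27%. Stretches of this inner window are shown for 8 genes with the hexamer in capitals: NAT10 and RRP9 because they moved in opposite directions in the S clones, WDR43 and PNO1 because they lie on chromosome 2, RCL1 because it is the member on chromosome 9, and FBL, GNL3 and DDX21 as members of the snoRNP, large subunit and regulator groups.
NAT10, chr11:34105589-34105653, plus strand: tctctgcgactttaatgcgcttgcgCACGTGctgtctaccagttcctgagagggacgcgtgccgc
DDX21, chr10:68956607-68956671, plus strand: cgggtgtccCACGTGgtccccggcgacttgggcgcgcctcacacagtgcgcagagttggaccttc
RRP9, chr3:51941880-51941944, minus strand: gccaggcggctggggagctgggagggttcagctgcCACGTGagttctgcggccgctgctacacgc
FBL, chr19:39846355-39846419, minus strand: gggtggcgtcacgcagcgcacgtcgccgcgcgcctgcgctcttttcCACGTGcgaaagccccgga
GNL3, chr3:52685992-52686056, plus strand: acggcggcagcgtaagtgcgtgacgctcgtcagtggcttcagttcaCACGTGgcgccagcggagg
WDR43, chr2:28894627-28894691, plus strand: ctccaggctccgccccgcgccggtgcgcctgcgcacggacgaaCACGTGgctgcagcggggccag
PNO1, chr2:68157848-68157912, plus strand: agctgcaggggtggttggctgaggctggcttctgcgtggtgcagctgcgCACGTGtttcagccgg
RCL1, chr9:4792904-4792968, plus strand: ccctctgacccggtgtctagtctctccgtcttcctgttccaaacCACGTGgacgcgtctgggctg

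These stretches are descriptions of sequence and not of binding. The median log2 fold change of the S clones against wild type was -0.32 over 18 genes with it and -0.29 over 19 genes without it.

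Levels differed widely among the 47 genes. Per kilobase of principal transcript, NCL, a histone and RNA chaperone of the nucleolus, was the most abundant in wild-type clones at 792 ± 62.1 CPM per kb (SD, n = 4), followed by NPM1, the nucleolar chaperone nucleophosmin, at 447 ± 31.5 CPM per kb and DKC1, the pseudouridine synthase dyskerin, at 279.9 ± 19.6 CPM per kb. The median over the 45 tested genes was 34.8 CPM per kb. NPM1 has 45 named pseudogene copies in the annotation, so its reads could have been divided among near-identical sequences. At the other end, NOP2, an rRNA cytosine methyltransferase, had at most 0.992 CPM and RRN3, the initiation factor of RNA polymerase I, at most 0.783 CPM in any clone, and both were too low to be tested. NOP2 shares exons with another annotated gene on the same strand and RRN3 has 2 named pseudogene copies, so neither low value was taken as absence of the transcript. NOC2L, a nucleolar protein that also binds histones, was the least abundant tested gene at 0.646 ± 0.216 CPM per kb, and it rests on 13 to 141 counts per clone. UTP4, a small subunit processome protein, came next at 1.55 ± 0.31 CPM per kb. All 47 genes together took 0.943% to 1.11% of counts in the wild-type clones, 0.930% and 1.15% in C12 and C15, and 0.639% and 0.890% in S04 and S36. In bulk RNA of this kind, fewer cells expressing these genes and less of their RNA per cell cannot be told apart.

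Across all 4 knockout and all 4 wild-type clones, no member passed the test. The edgeR quasi-likelihood test with Benjamini-Hochberg adjustment over 14243 genes called 0 of 45 members at an adjusted p under 0.05, where 0.316% of all tested genes were called (45 genes, 20 higher and 25 lower). At an unadjusted p under 0.05, 8 members passed, which is 17.8% beside 15.5% of all tested genes. These were 4 higher and 4 lower members (8.89% each), beside 8.47% and 6.99% of all tested genes. DESeq2 called 1 member, NOC2L, beside 3.89% of the genes it gave an adjusted p, and limma-voom called 0, beside 0.66% of all tested genes. The median log2 fold change over the members was -0.11, beside 0.02 over all tested genes, with 26 members below 0 (57.8%, beside 47.8% of all tested genes) and 19 above (42.2%, beside 52.2%). That median was 0.00016 without S04. Taken from differences of mean log2 CPM, it was 0.013 when each member was set against its chromosome. Both values are near 0. The groups did not overlap for 5 members: RRP9 and NOC2L stood higher in every knockout clone, and NOP58, DDX18 and POLR1B lower, which is 11.1% of the members beside 10.1% of all tested genes (4.44% higher and 5.62% lower). The share of members that separated the groups was thus near that of all genes. NOP58, DDX18 and POLR1B all lie on chromosome 2. The median log2 difference of its tested genes from wild type was -0.34, -0.43, -0.36 and -0.24 in C12, C15, S04 and S36. The part of the chromosome in these separations was not tested.

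None of those 8 members passed the adjusted threshold. NOC2L showed a log2 fold change between the groups of 1.83 (SE 0.44, edgeR adjusted p = 0.116). HEATR1, a processome protein that also aids RNA polymerase I, had 0.62 (SE 0.23, edgeR adjusted p = 0.245), and RRP9, a protein of the U3 snoRNP, had 0.37 (SE 0.15, edgeR adjusted p = 0.284). PPAN, a large subunit assembly factor, had 0.35 (SE 0.13, edgeR adjusted p = 0.247). On the lower side, NOP58, a core protein of box C/D snoRNPs, had -0.73 (SE 0.25, edgeR adjusted p = 0.201) and DDX18, a DEAD-box helicase, had -0.61 (SE 0.20, edgeR adjusted p = 0.198). TCOF1, the treacle protein that recruits RNA polymerase I factors, had -0.49 (SE 0.22, edgeR adjusted p = 0.308), and WDR12, a subunit of the PeBoW complex with PES1 and BOP1, had -0.35 (SE 0.15, edgeR adjusted p = 0.312). Pairs of knockout clones with the same letter differed by more than pairs of wild-type clones: over the tested members the median absolute log2 difference was 0.33 between C12 and C15 and 0.50 between S04 and S36, against 0.099 to 0.25 between pairs of wild-type clones.

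In the plot of all tested members by clone, S04 stood apart with a median of -0.49. S36, at -0.20, lay just below the wild-type range of -0.15 to 0.19. The split by clone letter was made with the distance between the knockout clones known, and p-values do not allow for that choice. Against the 4 wild-type clones, S04 and S36 had 15 of 45 members past the threshold (33.3%), where the same test called 14.5% of 15219 genes. Of these, 11 were lower (24.4%, beside 7.36% of all tested genes) and 4 were higher (8.89%, beside 7.17%). NCL, NPM1, NOP58, TCOF1, LYAR, NAT10, DDX10, DDX18, EBNA1BP2, RRS1 and NOP16 fell, and RRP9, HEATR1, PPAN and NOC2L rose. The median log2 fold change was -0.30 over the members, 33 of which lay below 0 (73.3%, beside 48.2% of all tested genes), and 0.02 over all tested genes. Both S clones lay below every wild-type clone for 18 members (40%, beside 19.3% of all tested genes) and above every wild-type clone for 5 (11.1%, beside 20.7%). The number of calls depended on single clones: 7 members were called without WT30 (beside 4.56% of all genes), 9 without WT28 (beside 6.21%) and 29 without S36 (beside 29.7%), with S04 as the only S clone. Of the 15, 7 stayed past the threshold under every alternative that could be computed for them, namely NPM1, NOP58, TCOF1, DDX18, NAT10, EBNA1BP2 and NOC2L. The share of mitochondrial counts and the level of histone genes were also higher in both S clones than in any wild-type clone, and their part in these results was not tested. With mitochondrial and histone genes left out of the library totals, 15 members were called, beside 14.3% of all genes.

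**Figure D1:**
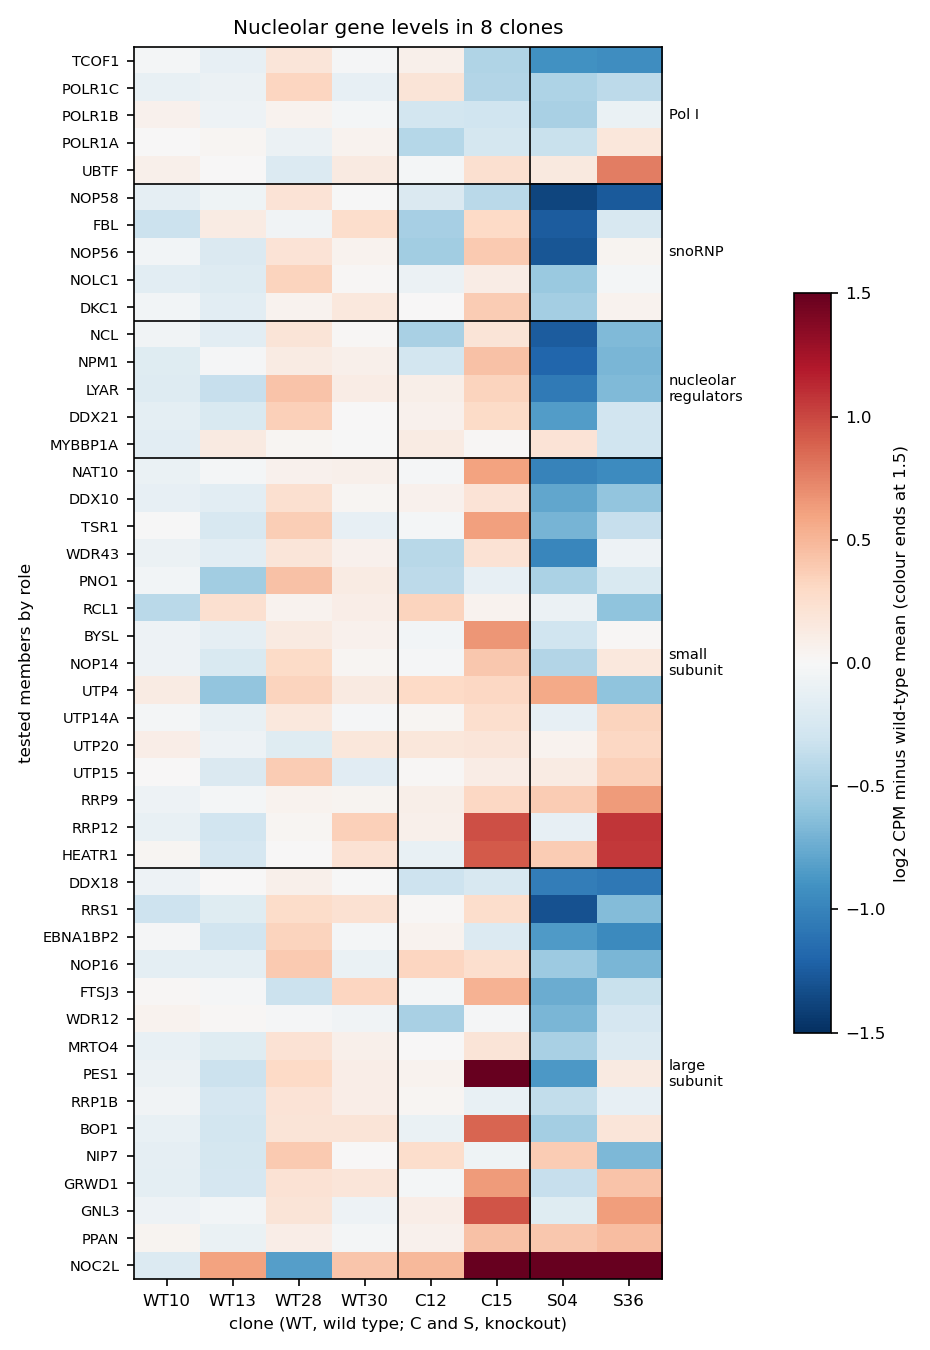
Each row is 1 of the 45 tested members, ordered by role and then by the log2 fold change of the S clones, and each column is a clone; colour gives log2 CPM minus the wild-type mean (for a wild-type clone, its 3 fellows' mean), with colours ending at 1.5 either way. S04 has 35 members below the wild-type mean and C15 has 34 above it, and rows such as NOP58, NAT10 and DDX18 are blue in both S clones.

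For the C clones the same test gave 0 of 45 members called, where it called 0.0395% of 15180 genes, and 6 members at an unadjusted p under 0.05 (13.3%, beside 10.3% of all tested genes). DESeq2 called 0 members, beside 147 of the 15180 genes fitted, and limma-voom 0, beside 0.125% of them. The median log2 fold change was 0.11, beside -0.02 over all tested genes, and 30 members lay above 0 (66.7%, beside 47.2%). C12 and C15 differed here. The median over the members was 0.0087 in C12, within the wild-type range of -0.15 to 0.19, and 0.26 in C15, above that range. Without C12, 12 members were called, 10 of them higher, beside 15.8% of all genes, from the single and shallowest library C15. In C15, PES1, a subunit of the PeBoW complex, stood at 128 CPM, beside 43.6 CPM in C12, 23.3 and 46.5 CPM in S04 and S36 and 40.3, 35.7, 49.4 and 44.5 CPM in the wild-type clones.

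The difference between C and S clones was tested directly, in a fit with 3 groups over 15665 genes. No member passed the threshold, where 0.0894% of all tested genes did (14 genes). At an unadjusted p under 0.05, 17 members passed (37.8%, beside 16.4%), 16 of them higher in the C clones (35.6%, beside 8.46% of all tested genes). The median log2 difference of C minus S was 0.39 over the members, 35 of which lay above 0 (77.8%, beside 46.1%), and -0.057 over all tested genes. Closest to the threshold were NAT10 with 1.29 (SE 0.20, edgeR adjusted p = 0.0503), NOP58 with 1.01 (SE 0.16, edgeR adjusted p = 0.0507) and DDX18 with 0.78 (SE 0.14, edgeR adjusted p = 0.0555). Other tools placed more members past the threshold, all of them higher in the C clones: DESeq2 called 10, beside 5.28% of the genes it gave an adjusted p, and limma-voom 3, beside 0.581% of all tested genes. The comparisons of C and of S clones share their wild-type clones.

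**Figure D2:**
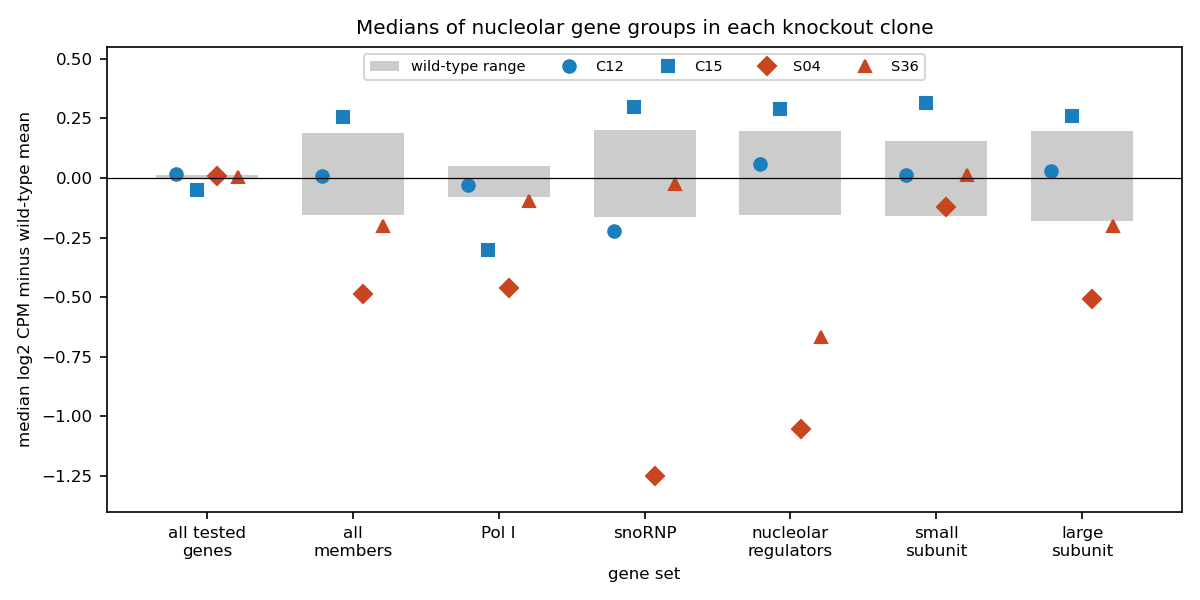
Points are medians of log2 CPM minus the wild-type mean over the tested members of each role, 1 point for each knockout clone, and grey bars span the 4 wild-type clones; all tested genes stand at the left. S04 lies below the grey bar for all members (-0.49), and its lowest medians are those of snoRNP proteins (-1.25) and nucleolar regulators (-1.05), where S36 stands at -0.027 and -0.67.

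Among the 5 tested factors of RNA polymerase I transcription, 1 fell in the S clones and none rose. TCOF1, on chromosome 5 at chr5:150357629-150400308 (GRCh38), had 235, 224, 262 and 238 CPM in WT10, WT13, WT28 and WT30, 253 and 176 in C12 and C15, and 128 and 125 in S04 and S36. Both S clones lay below every other clone. It fell by 0.94 on the log2 scale (SE 0.12, edgeR adjusted p = 0.00391) in S clones against wild type. POLR1B, the second largest polymerase subunit, had 48.2, 44.8, 47.9 and 46.0 CPM in WT10, WT13, WT28 and WT30, 38.6 and 37.9 in C12 and C15, and 33.3 and 43.6 in S04 and S36. All 4 knockout clones lay below the lowest wild-type clone, and the contrast of all knockout clones was -0.28 (SE 0.13, edgeR adjusted p = 0.341). For POLR1A, the largest subunit, the values were 39.5, 40.1, 37.5 and 40.4 CPM in WT10, WT13, WT28 and WT30, 29.3 and 32.6 in C12 and C15, and 31.3 and 44.2 in S04 and S36. C12, C15 and S04 lay below the wild-type clones and S36 above them. POLR1B and POLR1A lie on chromosome 2. Tested genes within 10 Mb of POLR1B had median log2 differences of -0.34, -0.41, -0.48 and -0.49 in C12, C15, S04 and S36. POLR1B itself stood at -0.28, -0.30, -0.49 and -0.098 in that order. The neighbours of POLR1A stood at -0.40, -0.38, -0.34 and -0.19, and POLR1A at -0.42, -0.27, -0.33 and 0.17. The part of these neighbours was not tested. UBTF, the factor that binds the ribosomal DNA promoter, went the other way in S36, at 330.1 CPM beside 194 ± 14.6 CPM (SD, n = 4) in wild-type clones, and its S contrast was 0.48 (SE 0.17, edgeR adjusted p = 0.098). POLR1C, a subunit shared with RNA polymerase III, had an S contrast of -0.45 (SE 0.15, edgeR adjusted p = 0.0862).

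Of the 5 snoRNP genes, 1 fell in the S clones and none rose, and all 5 had log2 fold changes below 0, from -1.33 to -0.22. NOP58, which lies at chr2:202265716-202303666, had 235, 244, 279 and 251 CPM in WT10, WT13, WT28 and WT30, 216 and 189.8 in C12 and C15, and 97.1 and 105 in S04 and S36. It was the lowest member relative to wild type, both S clones being at less than any other clone, and it fell by 1.33 on the log2 scale (SE 0.13, edgeR adjusted p = 0.00165). NOP56, its partner in the box C/D snoRNP, had 451, 412, 512 and 473 CPM in WT10, WT13, WT28 and WT30, 319.7 and 605 in C12 and C15, and 189 and 472 in S04 and S36. S04 was the lowest clone, C12 also lay below the wild-type clones, and S36 lay among them. The S contrast of -0.50 (SE 0.31, edgeR adjusted p = 0.307) did not pass. The 376 tested genes of chromosome 20, where NOP56 lies, had median log2 differences from wild type of -0.35 and 0.043 in the C clones C12 and C15 and of -0.45 and -0.15 in the S clones S04 and S36. NOP56 itself stood at -0.53, 0.39, -1.28 and 0.037 in the same order. Tested genes within 10 Mb of NOP56 had medians of -0.55, 0.077, -0.59 and 0.46 in C12, C15, S04 and S36. The part of the chromosome and of these neighbours was not tested. FBL, the methyltransferase fibrillarin of the same particle, had 141, 178, 163 and 193 CPM in WT10, WT13, WT28 and WT30, 119 and 206 in C12 and C15, and 70.5 and 141 in S04 and S36. It too was lowest in S04, with C12 next and S36 at the bottom of the wild-type range. Its S contrast was -0.69 (SE 0.26, edgeR adjusted p = 0.112). DKC1, of the box H/ACA particle, and NOLC1, a snoRNP chaperone, had S contrasts of -0.22 and -0.29 with adjusted p of 0.407 and 0.311 in edgeR.

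Of the 5 nucleolar chaperones and regulators, 3 fell in the S clones. NCL (chr2:231453531-231483641) had 3094, 2943, 3532 and 3214 CPM in WT10, WT13, WT28 and WT30, 2278 and 3652 in C12 and C15, and 1340.5 and 2011 in S04 and S36. C12 lay below the wild-type clones too, and C15 above them. In the S clones it fell by 0.95 on the log2 scale (SE 0.18, edgeR adjusted p = 0.013). The log2 difference of NCL was -1.25 in S04 and -0.67 in S36. Tested genes within 10 Mb of NCL had medians of -0.43 and -0.42 there. The part of these neighbours was not tested. NPM1 (chr5:171387116-171411137) had 627, 683, 738 and 720.2 CPM in WT10, WT13, WT28 and WT30, 569 and 937 in C12 and C15, and 303 and 431 in S04 and S36. C12 again lay below the wild-type clones and C15 above them, and the S clones were lowest. NPM1 fell in the S clones by 0.93 on the log2 scale (SE 0.16, edgeR adjusted p = 0.0106). LYAR, a nucleolar zinc finger protein, had 183, 169.8, 254 and 215 CPM in WT10, WT13, WT28 and WT30, 216 and 257 in C12 and C15, and 97.7 and 128 in S04 and S36. Only the S clones lay outside the wild-type range on the low side, and LYAR fell by 0.88 on the log2 scale (SE 0.20, edgeR adjusted p = 0.0228). DDX21, a helicase of RNA polymerase I and snoRNA function, had an S contrast of -0.56 (SE 0.19, edgeR adjusted p = 0.0831), and MYBBP1A, a nucleolar MYB-binding protein, one of -0.041 (SE 0.18, edgeR adjusted p = 0.906).

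Of the 15 small subunit genes, 2 fell and 2 rose in the S clones. NAT10, the acetyltransferase that modifies cytidines of 18S ribosomal RNA, lies at chr11:34105602-34147670 and had 326, 339, 355 and 359 CPM in WT10, WT13, WT28 and WT30, 339.6 and 522 in C12 and C15, and 172 and 179 in S04 and S36. The S clones were at about the same level as each other, below all other clones, while C15 was the highest clone. It fell by 0.99 on the log2 scale (SE 0.11, edgeR adjusted p = 0.00276). DDX10, a DEAD-box helicase, had 134, 132, 163 and 146 CPM in WT10, WT13, WT28 and WT30, 149.8 and 165 in C12 and C15, and 83.3 and 94.8 in S04 and S36. Both S clones lay below all others, and it fell by 0.71 on the log2 scale (SE 0.14, edgeR adjusted p = 0.0143). In the other direction, HEATR1 had 40.1, 34.6, 39.7 and 44.4 CPM in WT10, WT13, WT28 and WT30, 36.6 and 75.0 in C12 and C15, and 51.5 and 82.5 in S04 and S36. C15 and both S clones lay above the wild-type range and C12 within it, and HEATR1 rose in the S clones by 0.74 on the log2 scale (SE 0.19, edgeR adjusted p = 0.038). RRP9 had 27.7, 28.4, 29.7 and 29.5 CPM in WT10, WT13, WT28 and WT30, 30.6 and 35.9 in C12 and C15, and 37.6 and 44.9 in S04 and S36. Every knockout clone exceeded every wild-type clone, by little in C12, and RRP9 rose in the S clones by 0.50 on the log2 scale (SE 0.13, edgeR adjusted p = 0.0412). Neither rise held under every alternative: HEATR1 did not pass in 6 of 16 alternatives and RRP9 in 8 of 16. Without S36 the log2 fold change was 0.34 for both HEATR1 and RRP9. RRP12, a factor for export of both subunits, had 19.6, 17.9, 21.1 and 25.04 CPM in WT10, WT13, WT28 and WT30, 21.8 and 40.7 in C12 and C15, and 19.1 and 43.6 in S04 and S36. C15 and S36 were high and C12 and S04 lay within the wild-type range, and the contrast of all knockout clones was 0.56 (SE 0.27, edgeR adjusted p = 0.35). The other members of this group, among them BYSL, NOP14, UTP4, UTP14A, UTP20, WDR43, PNO1 and RCL1, had S contrasts between -0.54 for TSR1, a late maturation factor of the small subunit, and 0.22 for UTP15, a processome protein, none of which passed.

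Of the 15 tested large subunit genes, 4 fell and 2 rose in the S clones. DDX18, at chr2:117814650-117832379, had 418, 437, 452 and 434 CPM in WT10, WT13, WT28 and WT30, 351 and 369.6 in C12 and C15, and 212 and 206 in S04 and S36. All knockout clones lay below all wild-type clones, the S clones farthest, and DDX18 fell in the S clones by 1.07 on the log2 scale (SE 0.11, edgeR adjusted p = 0.00209). EBNA1BP2, a nucleolar scaffold of early large subunit precursors, lies at chr1:43164175-43270936 and had 234, 203, 281 and 232 CPM in WT10, WT13, WT28 and WT30, 244 and 204 in C12 and C15, and 130.9 and 122 in S04 and S36. The C clones stood within the wild-type range and the S clones below it, and the fall was 0.92 on the log2 scale (SE 0.15, edgeR adjusted p = 0.00852). RRS1, which brings the 5S particle into the precursor, had 50.04, 53.6, 67.9 and 66.2 CPM in WT10, WT13, WT28 and WT30, 59.9 and 70.5 in C12 and C15, and 23.7 and 37.5 in S04 and S36. S04 was lowest, then S36, and RRS1 fell by 0.97 on the log2 scale (SE 0.22, edgeR adjusted p = 0.0247). NOP16, a nucleolar protein of large subunit precursors, had 39.5, 39.6, 52.4 and 40.4 CPM in WT10, WT13, WT28 and WT30, 53.5 and 50.8 in C12 and C15, and 29.1 and 26.4 in S04 and S36. WT28 stood above the other 3 wild-type clones, and NOP16 fell in the S clones by 0.64 on the log2 scale (SE 0.17, edgeR adjusted p = 0.0384). It did not pass in 6 of 16 alternatives.

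PPAN and NOC2L rose. PPAN had 177, 164, 182 and 169.8 CPM in WT10, WT13, WT28 and WT30, 182 and 234 in C12 and C15, and 229.8 and 238 in S04 and S36. C15 and both S clones lay above the wild-type range and C12 at its top, and the rise in the S clones was 0.42 on the log2 scale (SE 0.11, edgeR adjusted p = 0.0343). PPAN did not pass in 7 of 16 alternatives. Its exons overlap those of P2RY11 and of a read-through gene on the same strand, so the division of reads among them is uncertain. NOC2L (chr1:944204-959309) had 1.54, 2.41, 1.08 and 2.17 CPM in WT10, WT13, WT28 and WT30, 2.47 and 5.24 in C12 and C15, and 7.05 and 10.8 in S04 and S36. All 4 knockout clones exceeded all wild-type clones, by little in C12 (64 counts, beside 46 in WT13), and C15 held 13 counts. The rise in the S clones was 2.29 on the log2 scale (SE 0.34, edgeR adjusted p = 0.00615). NOC2L overlaps SAMD11 on the other strand, and no source used here gives the strand setting of the counts, so reads of the 2 genes cannot be told apart. WDR12, PES1 and BOP1, which form 1 complex, had S contrasts of -0.47, -0.30 and -0.14 with adjusted p of 0.0619, 0.477 and 0.681 in edgeR. GNL3, the nucleolar GTPase nucleostemin, had 204, 208, 235 and 205 CPM in WT10, WT13, WT28 and WT30, 227 and 411 in C12 and C15, and 188 and 328 in S04 and S36. C15 and S36 stood above the wild-type clones, and no contrast of GNL3 passed the threshold. FTSJ3, MRTO4, RRP1B, NIP7 and GRWD1 had S contrasts from -0.55 for FTSJ3 to 0.069 for GRWD1, and none passed. EBNA1BP2, NOP16 and HEATR1 have exons that overlap those of genes on the other strand, RRS1 those of a gene on its own strand, and DDX18 has 5 named pseudogene copies, so the division of their reads is uncertain too.

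**Figure D3:**
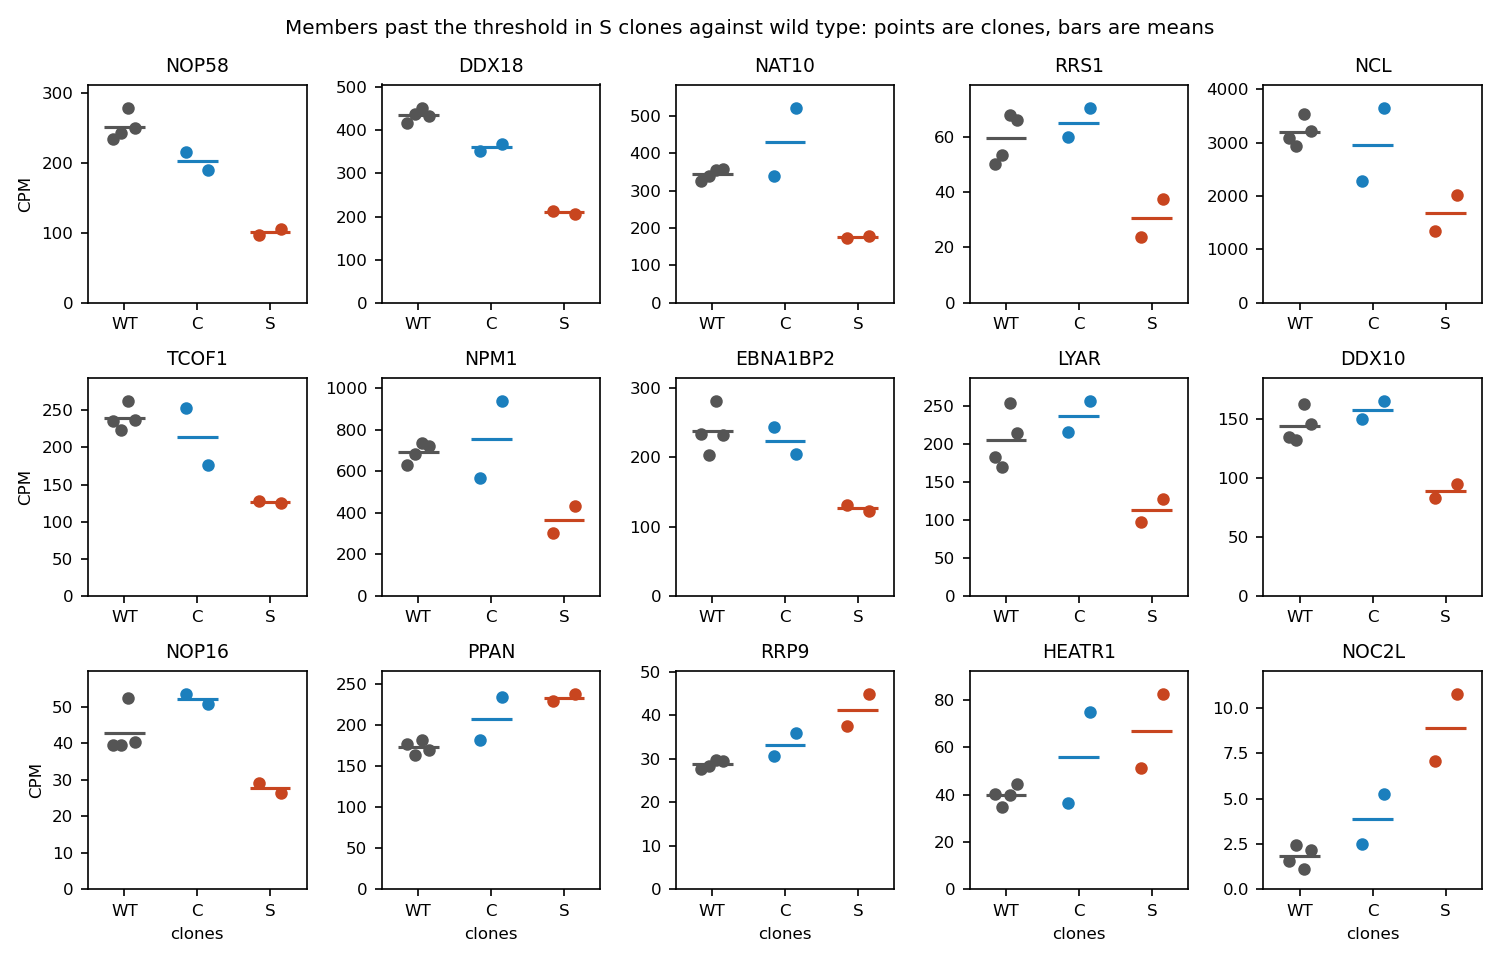
Each panel is 1 of the 15 members past the threshold in S clones against wild type, ordered by log2 fold change; points are clones, horizontal bars are group means, and the vertical axis is CPM from 0. The S points lie below all other points for NOP58 (97.1 and 105 CPM) and NAT10 (172 and 179 CPM), and above all wild-type points for NOC2L (7.05 and 10.8 CPM).

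The 2 S clones were not alike over these genes. S04 had 35 of 45 members below the wild-type mean and a median log2 difference of -0.49, and S36 had 27 below and a median of -0.20. Over the snoRNP proteins the medians were -1.25 and -0.027, and over the nucleolar regulators -1.05 and -0.67. WDR43, a processome protein, had 195 CPM in S04 and 366 CPM in S36, beside 387 ± 30.4 CPM (SD, n = 4) in wild-type clones. NOP58, DDX18, NAT10, TCOF1 and EBNA1BP2, by contrast, had similar values in both S clones. With 1 library for each clone these differences between S04 and S36 have no replicate check.

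The members also moved together among the wild-type clones, which sets the scale for reading a shift of the list. WT10 had 35 and WT13 had 37 of 45 members below the mean of their 3 fellow clones, while WT28 had 38 and WT30 had 31 above it. The medians were -0.076, -0.15, 0.19 and 0.052, where all tested genes had medians between 0.0014 and 0.012. A median of this list is therefore not 45 separate observations. S04 at -0.49 lay outside the wild-type range, S36 at -0.20 just below its lower end of -0.15, and C15 at 0.26 just above its upper end of 0.19.

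Chromosome 2 carried 8 of the members: NCL, NOP58, WDR43, WDR12, POLR1A, POLR1B, PNO1 and DDX18. On this chromosome 948 genes were tested, and their median log2 difference from wild type was -0.34 and -0.43 in C12 and C15, -0.36 and -0.24 in S04 and S36, and between -0.044 and 0.037 in the wild-type clones. The shift was not even along the chromosome. Tested genes within 10 Mb of NOP58 had medians of -0.29, -0.49, 0.014 and -0.32 in C12, C15, S04 and S36. Those within 10 Mb of DDX18 had -0.30, -0.30, -0.37 and -0.31 in that order. Those within 10 Mb of NCL had -0.32, -0.28, -0.43 and -0.42. All 8 members had log2 fold changes below 0 in knockout against wild type, from -0.73 for NOP58 to -0.20 for POLR1A, with a median of -0.34. PNO1, which helps form the 3′ end of 18S ribosomal RNA, had 31.0, 24.1, 39.7 and 33.6 CPM in WT10, WT13, WT28 and WT30, 24.1 and 29.02 in C12 and C15, and 22.7 and 26.8 in S04 and S36. Its knockout contrast was -0.33 (SE 0.18, edgeR adjusted p = 0.407). Over the 37 tested members on other chromosomes the median in knockout against wild type was 0.0099, with 19 above 0 and 18 below. In the S clones the 37 tested members off chromosome 2 had a median of -0.26. Of these 37, 8 were called lower and 4 higher, where 7.36% of all tested genes were called lower and 7.17% higher. Chromosome 9 shifted upward, by 0.21, 0.37, 0.40 and 0.36 in C12, C15, S04 and S36, and its only member, RCL1, a cyclase-like protein of the processome, had 22.7, 31.7, 28.8 and 29.5 CPM in WT10, WT13, WT28 and WT30, 35.3 and 29.02 in C12 and C15, and 26.3 and 18.4 in S04 and S36. RCL1 had a knockout contrast of -0.051 (SE 0.21, edgeR adjusted p = 0.938), so it did not stand above wild type as its chromosome did. When each member was set against the median of its own chromosome, the median over members was -0.0020, 0.35, -0.53 and -0.20 in C12, C15, S04 and S36.

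**Figure D4:**
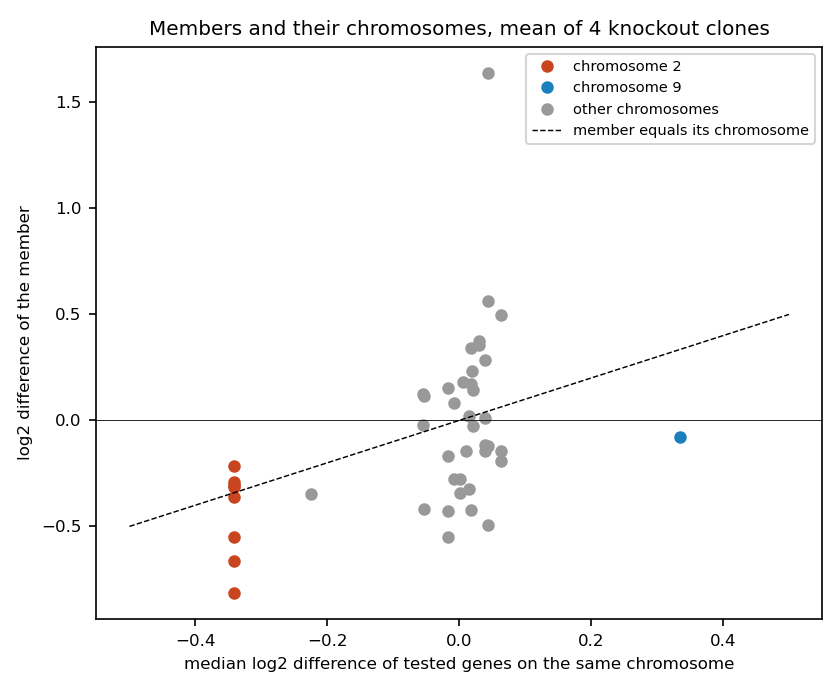
Each point is a tested member; the vertical axis is its log2 difference from the wild-type mean averaged over the 4 knockout clones, and the horizontal axis is the same average for the median of tested genes on its chromosome, the dashed line marking equality. The 8 members on chromosome 2 form the column at the left, all below 0, and the member on chromosome 9 stands alone at the right.

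MYC levels did not separate the groups. MYC had 16.4, 13.4, 14.8 and 11.0 CPM in WT10, WT13, WT28 and WT30, 18.5 and 4.84 in C12 and C15, and 17.7 and 6.94 in S04 and S36. C12 and S04 lay above every wild-type clone and C15 and S36 below every one, the same split as for NKX2-1. The log2 fold change of MYC in knockout against wild type was -0.15 (SE 0.36, edgeR adjusted p = 0.885). Permuting log2 CPM exactly over 70 assignments gave a two-sided p of 0.457. The wild-type mean was 13.9 ± 2.30 CPM (SD, n = 4). Over 11 tested genes of the MYC network, the S clones had a median of 0.017. Of these 11, 1 was called higher and 0 lower, beside 7.17% and 7.36% of all tested genes. The gene called was MYCN, a paralog of MYC on chromosome 2, named here after its values were seen. MYCN had 39.5, 55.5, 33.9 and 35.5 CPM in WT10, WT13, WT28 and WT30, 42.3 and 11.7 in C12 and C15, and 79.2 and 78.9 in S04 and S36. Both S clones lay above all other clones and C15 lay below them, and the S contrast was 0.93 on the log2 scale (SE 0.20, edgeR adjusted p = 0.0191).

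Several members hold small RNA genes within their bounds. The annotation places 34 small RNAs of the table within 13 members on the same strand, and 1 of them, the box C/D snoRNA SNORD57 in NOP56, had at least 10 counts in every clone. Its sequence of 72 bases at chr20:2656939-2657010 (GENCODE release 29, GRCh38, written as DNA) is shown with the box C core TGATGA and the box D element CTGA in capitals, since these boxes are what NOP56, NOP58 and FBL assemble on. Both elements, in this order, occur in 220 of 288 annotated SNORD transcripts (76.4%).
SNORD57: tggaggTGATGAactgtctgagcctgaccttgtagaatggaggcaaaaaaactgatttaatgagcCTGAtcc

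SNORD57 had 130, 109, 123 and 145 counts in WT10, WT13, WT28 and WT30, 119 and 28 in C12 and C15, and 215 and 389 in S04 and S36. In CPM these were 6.91, 5.71, 5.79 and 6.43 in the wild-type clones, 4.58 and 11.3 in the C clones and 13.0 and 29.7 in the S clones. SNORD57 rose in the S clones by 1.76 on the log2 scale (SE 0.30, edgeR adjusted p = 0.00939), while its host NOP56 had a log2 fold change of -0.50 there, which did not pass. SNORD57 overlaps annotated exon sequence of NOP56, so reads of the snoRNA and of its host cannot be told apart there. The difference between host and snoRNA was not tested. How far each library retained short RNA is unknown, and its part was not tested.

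Other genes of the pathway were also called in the S clones. Of 139 further genes listed as RNA polymerase I, snoRNP, small subunit, large subunit or exosome factors, 135 were tested, and 25 fell (18.5%, beside 7.36% of all tested genes) and 6 rose (4.44%, beside 7.17%) in the S clones, with a median log2 fold change of -0.11. By list, 13 of 50 other large subunit factors fell and 2 rose, 7 of 43 other small subunit factors fell and 2 rose, 2 of 15 exosome genes fell and none rose, 2 of 15 other RNA polymerase I genes fell and none rose, and 1 of 12 other snoRNP genes fell and 2 rose. TMA16, a large subunit precursor protein, fell by 1.00 on the log2 scale (SE 0.12, edgeR adjusted p = 0.00308). MPHOSPH6, an exosome cofactor, fell by 1.21 on the log2 scale (SE 0.18, edgeR adjusted p = 0.00582), and IMP4, a U3 snoRNP protein, by 0.89 on the log2 scale (SE 0.14, edgeR adjusted p = 0.00677). RUVBL1, an ATPase of snoRNP assembly, rose by 1.33 on the log2 scale (SE 0.14, edgeR adjusted p = 0.0025), TEX10, of the large subunit remodelling machinery, by 1.44 on the log2 scale (SE 0.16, edgeR adjusted p = 0.00276), and DIMT1, an 18S methyltransferase, by 1.53 on the log2 scale (SE 0.30, edgeR adjusted p = 0.0144). IMP4 lies on chromosome 2 and TEX10 on chromosome 9, whose medians stood below and above wild type in the knockout clones. DIMT1 stood at 0.986 ± 0.0951 CPM (SD, n = 4) in wild-type clones, near 1 CPM.

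Over all knockout clones, edgeR called 0 of these 135 genes at an adjusted p under 0.05. At an unadjusted p under 0.05, 16 passed, 10 higher and 6 lower, where 15.5% of all tested genes passed, 8.47% higher and 6.99% lower. The smallest p on the lower side were those of MPHOSPH10, a U3 snoRNP protein with -0.66 (SE 0.15, edgeR adjusted p = 0.101), NIFK, a Ki-67 interacting protein with -0.53 (SE 0.14, edgeR adjusted p = 0.125), and NOP53, a large subunit factor with -0.54 (SE 0.15, edgeR adjusted p = 0.146). MPHOSPH10 and NIFK lie on chromosome 2. On the higher side they were ZNF622, a late large subunit factor with 1.63 (SE 0.39, edgeR adjusted p = 0.116), ZNHIT3, a box C/D snoRNP assembly factor with 1.57 (SE 0.46, edgeR adjusted p = 0.165), and RUVBL1 with 0.90 (SE 0.27, edgeR adjusted p = 0.169). ZNF622 stood at 0.419 to 1.22 CPM in the wild-type clones and at 1.93 to 3.36 CPM in the knockout clones.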

How the data were processed

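RNA sequencing of 8 RPMI-8402 clones, 4 labelled NKX2-1 knockout and 4 wild type, was available as raw counts per gene symbol, deposited by the authors in a single table. Per the submitters' processing notes, the tools were FastQC, TopHat2, SAMtools and Subread and the build was hg38. No source used here gives their roles, their versions, the annotation or the strand setting. The labels name separate clones but no cultures or dates, and a p-value thus reflects only how these clones vary.

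Clones were assigned to groups by the series design and their titles. Counts were filtered with filterByExpr, scaled with TMM factors and tested two-sided by the quasi-likelihood method of edgeR (version 4.0.16 under R 4.3.3). P-values were adjusted by Benjamini-Hochberg over every tested gene, and 0.05 was the threshold. Knockout and wild-type clones were compared 4 against 4. S clones and C clones, 2 each, were each set against the 4 wild-type clones in fits of their own, and C was compared with S in a fit with 3 groups. This split followed the clone names and was made with the distance between the knockout clones known. CPM are TMM-scaled. Log2 CPM used a prior count of 2. A clone's log2 difference is taken from the wild-type mean, and for a wild-type clone from the mean of the other 3. Single values were compared by exact permutation. A count of 0 was read as at most 3, for counting error only. GENCODE release 29 gave positions, and to it 57038 of 61228 symbols and all 47 members were matched. Promoter sequences came from RefSeq (GRCh38.p14).

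The members, role groups and further lists were chosen with earlier results of these data known, so counts and medians over them are descriptions. The genes named were all members called in any comparison up to 12 each way, up to 4 members of each role by smallest p in knockout against wild type and up to 2 in C against S, members on chromosomes whose median moved by over 0.25 in at least 3 knockout clones, the 3 most and 3 least abundant per kilobase, up to 3 other pathway genes each way, MYC, NKX2-1, and hosted small RNAs with at least 10 counts in every clone. Members outside this rule, such as PES1, BOP1, GNL3 and MYBBP1A, were named after their values had been seen, to account for all 47.

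Libraries were compared in pairs by chi-square over genes; divided by its degrees of freedom it reached 13.9 or more between wild-type and 27.9 or more between knockout clones, so none was taken for a copy. On simulated counts, 33% of genes changed 2-fold and 71% of those changed 4-fold were recovered in S clones against wild type over 15219 genes, 28% and 80% in knockout against wild type over 14243 genes, and 8% and 59% in C against S over 15665 genes. Alternatives were other size factors, unscaled totals, no low-count filter, DESeq2 1.42.0, limma-voom (limma 3.58.1), equal depth, totals without mitochondrial and histone genes, chromosome-centred values, other fits, and each clone left out.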

Additional observations from a re-analysis of the deposited data

Results flagged for a closer look

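In groups of 4 clones, a value was marked when its gap to the nearest of the others was large for the group's range by Dixon's 95% limit, on log2 CPM. This marked 5 of 94 groups, and chance alone marks about 1 in 20, or 4.7 of 94. WT28 was high for NOP16 (5.72, beside 5.31 to 5.34 in the other wild-type clones), GNL3 (7.88, beside 7.68 to 7.70) and POLR1C (5.46, beside 5.13 to 5.16). C12 stood apart from the other knockout clones with a high POLR1C (5.42, beside 4.76 to 4.83) and a low PPAN (7.505, beside 7.84 to 7.89).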

How the results depend on the processing

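No paired analysis was possible because the labels give the clones no shared replicate numbers. With no low-count filter, 3 members were called in knockout against wild type (beside 1.85% of all genes), 1 in C clones against wild type (1.74%) and 15 in C against S (2.43%). With DESeq2 the count was 1 in knockout against wild type (3.89% of genes with an adjusted p) and 10 in C against S (5.28%). In C against S it was also 2 with DESeq2-type size factors (0.198%), 3 with limma-voom (0.581%), 2 at equal depth (0.349%) and 2 (0.358%) with the genes kept in the 4 against 4 comparison, a filter chosen after seeing the data. Leaving out each clone in turn gave 0 to 2 calls in knockout against wild type (2 without C12, beside 3.13% of all genes), 7 to 29 in S clones against wild type, 0 to 12 in C clones against wild type (12 without C12) and 0 to 10 in C against S (10 without C12 beside 3.97%, 6 without S36 beside 1.77%, 3 without C15 beside 0.281%). With a single clone left in an arm, its spread is assumed to be that of the other clones. The member median in knockout against wild type ran from -0.20 (without C15) to 0.00016 (without S04) on leaving out each clone. From differences of mean log2 CPM it was 0.013 set against the chromosome (23 members above 0 and 22 below) and -0.0073 within 10 Mb. Without chromosomes 2 and 9 it was 0.0052. The values near 0 were not read as a change of direction. The member median ran from -0.53 to -0.19 in S clones against wild type and from 0.19 (without C15) to 0.65 (without S36) in C minus S. The MYC contrast, -0.15, ran from -0.42 to 0.073, turning positive without C15 (0.051) and without S36 (0.073). Without S04, 2 knockout contrasts that had not passed turned positive, DDX21 (0.028) and NOP56 (0.0065). No other member contrast that was recomputed changed direction; those of other named genes, and single genes in the C contrast, were not recomputed. Unscaled totals moved the median of all tested genes in the S contrast to 0.16 and that of the members to -0.17, with 15 members called. Centring on the chromosome or on 10 Mb around each gene, the latter chosen after seeing the data, gave member medians of -0.21 and -0.24 in the S contrast. Without chromosomes 2 and 9, also chosen after seeing the data, 12 members were called there. The main S fit tested 36 such members and called 8 lower and 4 higher, and it called 14.5% of all tested genes. The shallow C15 library limits what can be seen in the C clones.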
